A study of Mus musculus with 9 samples.

Results

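RNA for 10 integrin subunits (Itga1, Itga2, Itga3, Itga5, Itga6, Itgav, Itgb1, Itgb3, Itgb4 and Itgb5) was examined in bEnd.3 tumors from mice given R-propranolol or vehicle. The members were the rows of the count table that carry these symbols, 10 of the 27 integrin subunit genes and of 24421 genes in all. No subunit passed the test of a difference between the groups, and the levels that varied most did so in 2 tumors of the R-propranolol group. In R-propranolol replicate 5, 6 subunits were at their lowest (Itga3, Itga2 and Itga6 by the widest margins) and Itgb4 and Itgb5 were at their highest, while in R-propranolol replicate 2 Itga1, Itgb3 and Itgb5 were high.

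The tumors grew from bEnd.3 cells, mouse brain endothelial cells transformed by the polyoma middle T antigen, injected into the flank of male athymic mice of the Nu/Nu nude background. Nude mice lack most T cells and keep other immune cells, and the sources used here do not give the animals' age. Treated mice (5 tumors) received R-propranolol, the stereoisomer of propranolol with little beta-adrenergic activity, into the peritoneum. Control mice (4 tumors) received the vehicle, ethanol in phosphate-buffered saline, by the same route. Both groups carried the same cells, a single line, and dosing began on the second day after the injection of cells. Each library was made from RNA of frozen tissue of 1 tumor, so the host's vessels, stroma and blood cells contribute to the values. The study's methods do not state whether a whole tumor or a piece was used. By the study's methods each mouse was inoculated in 1 flank, but the names of vehicle replicates 1 and 2 share a code that differs between the other tumors, and its meaning is not stated. Whether these 2 tumors came from separate mice is therefore unsure, and the p-values measure the spread between these samples.

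Integrins are cell surface receptors made of 1 alpha and 1 beta subunit, and most bind proteins of the extracellular matrix. Itgb1 pairs with many alpha subunits, among them the collagen-binding Itga1 and Itga2, the laminin-binding Itga3 and Itga6 and the fibronectin-binding Itga5. Itgav pairs with Itgb3, Itgb5 and Itgb1 to bind vitronectin, fibronectin and other ligands with the RGD motif, and Itga6 pairs with Itgb4 in the hemidesmosomes of epithelia. In endothelium these receptors hold cells to the basement membrane and act in the growth of new vessels. Talin and kindlin activate integrins by binding the short cytoplasmic tail of the beta subunit, which passes force and signals to the actin cytoskeleton.

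The coding stretches below show how the members are built where the subunits meet the cytoplasm. They were read from GRCm38 by the principal transcripts of GENCODE M21, 5′ to 3′ on the coding strand. In the alpha subunits the capitals mark the codons of the GFFKR motif just inside the membrane, a motif that holds the alpha and beta tails together in the resting receptor. Each alpha stretch crosses an exon junction, so its outer coordinates span an intron. In the beta subunits the capitals mark the codons of the membrane-proximal NPxY turn, to which talin binds, and of the distal NxxY turn, to which kindlin binds.
Itga1 (chr13:114960111-114965600, minus strand, junction after exon 28 of 29): aagattGGATTCTTCAAAAGGccacta
Itga2 (chr13:114836542-114837095, minus strand, junction after exon 29 of 30): aagctcGGCTTCTTCAAAAGAcaatat
Itga3 (chr11:95046567-95046923, minus strand, junction after exon 24 of 26): aagtgcGGCTTCTTCAAGCGAgcccgc
Itga5 (chr15:103345329-103345954, minus strand, junction after exon 29 of 30): aagctcGGCTTCTTCAAACGTtccctc
Itga6 (chr2:71849504-71853557, plus strand, junction after exon 24 of 26): aagtgtGGCTTCTTCAAGAGAaataag
Itgav (chr2:83803000-83803263, plus strand, junction after exon 29 of 30): aggatgGGCTTTTTCAAACGTgtccga
Itgb1 (chr8:128732029-128732076, plus strand, exon 16 of 16): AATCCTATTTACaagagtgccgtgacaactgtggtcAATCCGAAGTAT
Itgb3 (chr11:104667086-104667133, plus strand, exon 15 of 15): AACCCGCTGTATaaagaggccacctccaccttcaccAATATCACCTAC
Itgb5 (chr16:33948663-33948734, plus strand, exon 15 of 15): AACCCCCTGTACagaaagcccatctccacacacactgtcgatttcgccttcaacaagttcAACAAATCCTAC

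All 6 alpha subunits encode this motif, in differing codons. From the first to the second beta turn, Itgb1 and Itgb3 take 48 bases and Itgb5 takes 72, so the turns of Itgb5 lie farther apart. No such pair of turns was found in Itgb4, whose far longer tail binds plectin in hemidesmosomes. The longest exact run that the exons of 2 members share was 43 bases, between Itga1 and Itga2, which is shorter than a read of these libraries.

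The genes lie on 6 chromosomes of GRCm38, and Itga1 (chr13:114953096-115101964) and Itga2 (chr13:114833081-114932100) are neighbours on the minus strand. Exons of Itga1 share 685 bases with Gm49395 on the same strand, 3.68% of its exon length. Itgav shares 634 exon bases (5.90%) with Gm13684 and Itgb4 shares 537 (7.66%) with B230344G16Rik, both on the other strand. No source used here states the strand setting of the counting, so reads from these overlaps could not be assigned to a gene with certainty. The other 7 members share no exon base with another gene.

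The vehicle libraries held 20599904 to 24949010 gene counts each and the R-propranolol libraries 21084749 to 27852630. The summed count of the 10 members was 19597 in R-propranolol replicate 5 and between 39370 and 56636 in the other tumors. The lowest single count was 46, for Itga2 in R-propranolol replicate 5. This tumor stood apart, with 16.3% of its counts in 20 skeletal muscle markers against 0.00719% to 0.0652% in the others. Across genes, r of its log2 CPM with another tumor was 0.702 to 0.799, and the highest r between any 2 tumors was 0.990. Endothelial markers were detected in every tumor, and their summed level, in which Flt1 had the largest share in most tumors, was 1039 to 1274 CPM with vehicle and 872 to 1435 CPM with R-propranolol. CPM here are read counts relative to library size after TMM scaling (per 1e+06 counts). TMM gives each library a single scaling factor and does not remove differences in cell content between tumors.

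All 10 members passed the filter on low counts and were tested with edgeR's quasi-likelihood test among 13901 genes. Of the members, 0 passed an adjusted p of 0.05, where 0% of all genes tested did. At an unadjusted p under 0.05 there were also 0 members, against 2.3% of all genes (320). The tumors of the 2 groups did not overlap in 1.26% of all genes and in 0 members. With backgrounds this low, 0 of 10 does not set the members apart from other genes. DESeq2 called 0 of the 9 members for which it gave a p (it gave none for Itgb4) at either threshold, with 2 genes of the whole table past the adjusted one. With R-propranolol the mean was higher for 5 members and lower for 5, and the median log2 fold change was 0.01, beside 0.03 over all genes tested. In the values below a log2 fold change is R-propranolol over vehicle, with its standard error (SE) and 95% interval.

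**Figure D1:**
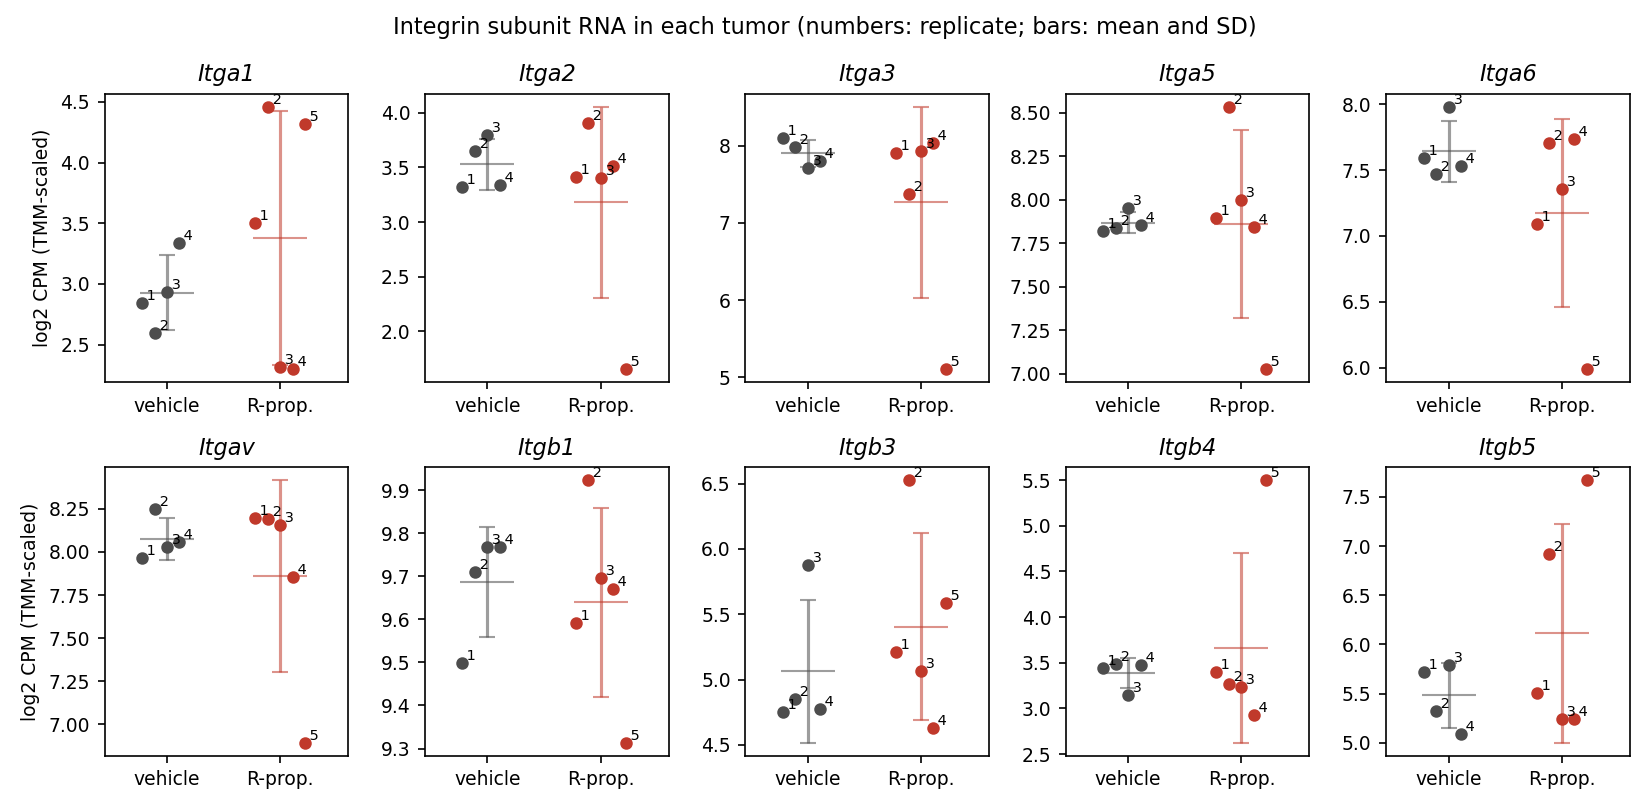
Log2 CPM (vertical axis, a scale of its own in each panel) of the 10 integrin subunits in each of 4 vehicle-treated (grey) and 5 R-propranolol-treated (red) tumors, labelled with replicate numbers (bars: group mean and SD). The groups overlap in every panel, and R-propranolol replicate 5 is the lowest tumor for 6 subunits and the highest for Itgb4 and Itgb5.

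Itga1, the alpha subunit of a collagen receptor found on smooth muscle, fibroblasts and small vessels, had the lowest level per length of the members. Its level was 7.10, 5.97, 7.54 and 10.02 CPM in vehicle replicates 1 to 4. In R-propranolol replicates 1 to 5 it was 11.3, 21.9, 4.89, 4.84 and 19.8 CPM. The 2 highest tumors and the 2 lowest tumors were all R-propranolol-treated, with the vehicle-treated tumors between them. Between groups, the log2 fold change was 0.71 (SE 0.49, interval -0.41 to 1.83, adjusted p = 0.876 in edgeR's quasi-likelihood test). Without R-propranolol replicate 5 it was 0.48, and without replicates 2 and 5 it was -0.12, so its sign depended on these 2 tumors.

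Itga2, the alpha subunit of the other main collagen receptor, which epithelial cells, platelets and endothelium carry, varied little outside R-propranolol replicate 5. The vehicle-treated tumors had 9.90, 12.4, 13.9 and 10.1 CPM. The R-propranolol-treated tumors had 10.6, 14.97, 10.5, 11.3 and 3.06 CPM. Replicate 5 lay under all the others and the remaining R-propranolol-treated tumors lay within or just above the vehicle range. This amounted to a log2 fold change of -0.20 (SE 0.38, interval -1.06 to 0.67, adjusted p = 0.885 in edgeR's test) and 0.03 without replicate 5 (interval -0.34 to 0.40).

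Itga3, which pairs with Itgb1 to bind the laminins of basement membranes, had the widest range of the members, 7.98-fold from the lowest to the highest tumor. It was measured at 274, 253, 210 and 222 CPM in the vehicle group. In the R-propranolol group it was measured at 240, 165, 243, 262 and 34.4 CPM. R-propranolol replicate 5 stood at 0.147 times the mean of the other 8 tumors, and replicate 2 was the next lowest. Its log2 fold change was -0.34 (SE 0.47, interval -1.41 to 0.73, adjusted p = 0.878 in edgeR's test). It was -0.08 without replicate 5 and 0.05 without replicates 2 and 5.

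Itga6, the laminin-binding partner of both Itgb1 and Itgb4, had levels of 193, 177, 253 and 184 CPM in vehicle-treated tumors. Its levels in R-propranolol-treated tumors were 136, 208, 164, 213 and 63.4 CPM. Replicates 1, 3 and 5 of the R-propranolol group lay under every vehicle-treated tumor, and replicates 2 and 4 lay within the vehicle range. Between groups, the log2 fold change was -0.36 (SE 0.32, interval -1.08 to 0.36, adjusted p = 0.876 in edgeR's test). It stayed negative without replicate 5, at -0.16 (interval -0.54 to 0.22), and at -0.24 without replicates 2 and 5.

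Itgb4, the laminin receptor subunit of hemidesmosomes, was low and even in 8 tumors and high in the remaining one. Its levels were 10.8, 11.1, 8.77 and 11.1 CPM in the vehicle group. They were 10.4, 9.53, 9.34, 7.54 and 45.2 CPM in the R-propranolol group. R-propranolol replicate 5 had 4.60 times the mean of the other 8 tumors, and the other 4 treated tumors lay within or under the vehicle range. The log2 fold change of 0.65 (SE 0.55, interval -0.60 to 1.90, adjusted p = 0.876 in edgeR's test) turned to -0.18 (interval -0.50 to 0.13) without this tumor. The ratio of Itgb4 to Itga6, both per kilobase of exon, was 0.916 in R-propranolol replicate 5 and between 0.0447 and 0.0986 in the other tumors. With the longest transcript as length it was 0.494 and 0.0241 to 0.0532, so the size of this ratio depends on the length used. A change of length scales every tumor alike, so it cannot change the order of tumors.

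Itga5, the alpha subunit of the main fibronectin receptor, was the most even of the alpha subunits in the vehicle group, with 227, 229, 248 and 232 CPM. The R-propranolol-treated tumors had 238, 371, 256, 230 and 130 CPM. Replicates 2 and 5 were the highest and the lowest of all tumors and the rest lay close together. This amounted to a log2 fold change of 0.07 (SE 0.25, interval -0.50 to 0.63, adjusted p = 0.934 in edgeR's test). Without replicate 2 it was -0.13, and without replicate 5 it was 0.22 (interval -0.10 to 0.55).

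Itgav, the common alpha subunit of the vitronectin receptors, was at 250, 304, 261 and 266 CPM in vehicle-treated tumors. It was at 294, 292, 285, 232 and 119 CPM in R-propranolol-treated tumors. Apart from replicate 5, which was lowest, the treated tumors lay within the vehicle range or just under it. Its log2 fold change was -0.14 (SE 0.25, interval -0.71 to 0.42, adjusted p = 0.882 in edgeR's test). Without replicate 5 it was 0.03, with an interval of -0.19 to 0.24.

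Itgb3, which pairs with Itgav on growing vessels, macrophages and osteoclasts and with Itga2b on platelets, was at 26.8, 28.8, 58.7 and 27.3 CPM in the vehicle group. The R-propranolol group had 36.9, 92.1, 33.4, 24.7 and 48.1 CPM. R-propranolol replicate 2 was highest, vehicle replicate 3 came next and stood apart from its own group, and the lowest tumor was R-propranolol-treated. Between groups, the log2 fold change was 0.41 (SE 0.41, interval -0.53 to 1.35, adjusted p = 0.878 in edgeR's test). It was 0.40 without replicate 5, 0.02 without replicate 2 and -0.16 without both, while leaving out vehicle replicate 3 gave 0.76.

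Itgb5, another beta partner of Itgav and the member with the smallest p, had levels of 52.8, 40.0, 55.3 and 33.9 CPM in vehicle-treated tumors. In R-propranolol-treated tumors it had 45.4, 121, 37.8, 37.7 and 204 CPM. Replicates 2 and 5 lay above every other tumor and replicates 1, 3 and 4 lay within the vehicle range. This amounted to a log2 fold change of 0.97 (SE 0.55, interval -0.27 to 2.21, adjusted p = 0.876 in edgeR's test). It was 0.40 (interval -0.49 to 1.29) without replicate 5 and -0.17 without replicates 2 and 5.

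Itgb1, the partner of most alpha subunits here, had the highest level and the narrowest range, 1.53-fold over the 9 tumors. The vehicle-treated tumors had 723, 838, 872 and 872 CPM. The R-propranolol-treated tumors had 772, 971, 829, 815 and 636 CPM. Replicates 2 and 5 again formed the ends of the range. Its log2 fold change was -0.04 (SE 0.15, interval -0.38 to 0.31, adjusted p = 0.939 in edgeR's test), and 0.03 without replicate 5 (interval -0.19 to 0.25). Of the members, Itgb1 had the shortest interval with all 9 tumors.

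**Figure D2:**
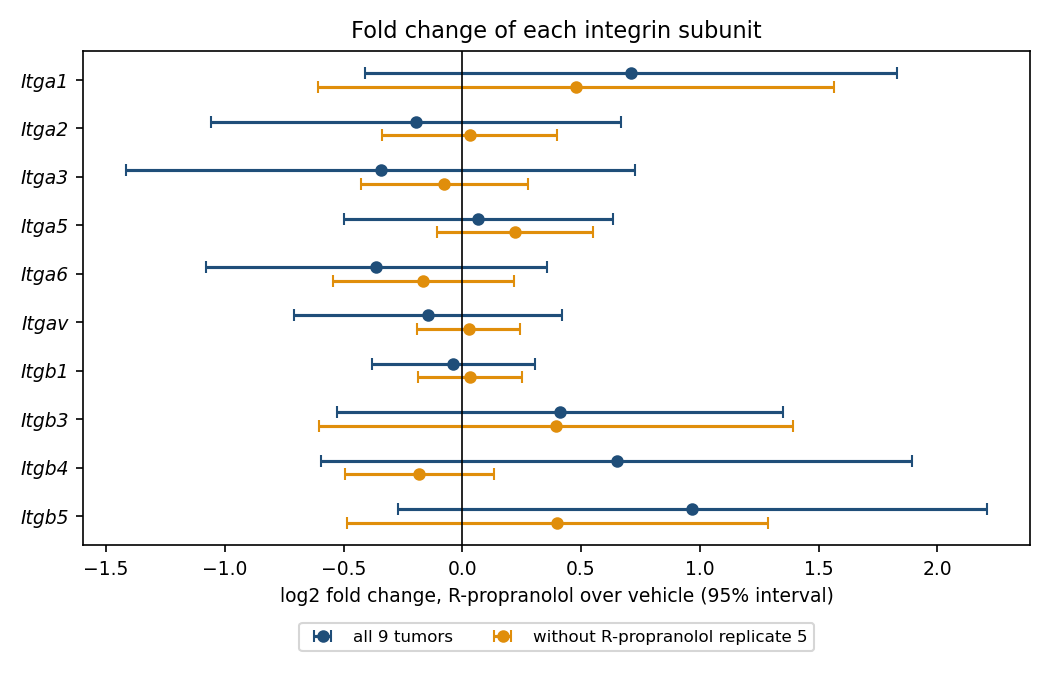
Log2 fold change of each integrin subunit, R-propranolol over vehicle (horizontal axis, points with 95% intervals from edgeR), with all 9 tumors (blue) and without R-propranolol replicate 5 (orange). All intervals cross 0 in both fits, and Itgb4 moves from 0.65 to -0.18 when this tumor is left out.

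The variation between tumors had a shape that the groups did not share. R-propranolol replicate 2 was the highest of all tumors for Itga1, Itga2, Itga5, Itgb1 and Itgb3, and R-propranolol replicate 5 was the lowest for Itga2, Itga3, Itga5, Itga6, Itgav and Itgb1. Against the mean of the 7 tumors other than these, replicate 2 had 2.97 times the level of Itga1, 2.73 times that of Itgb3, 2.79 times that of Itgb5 and 1.57 times that of Itga5. Its Itga3 level was 0.679 times that mean. R-propranolol replicate 5, set against the mean of the other 8 tumors, had 3.85 times the level of Itgb5, 2.16 times that of Itga1 and 0.332 times that of Itga6. R-propranolol replicates 1, 3 and 4 were highest for none of the members, and replicate 4 was lowest for Itga1, Itgb3 and Itgb4.

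**Figure D3:**
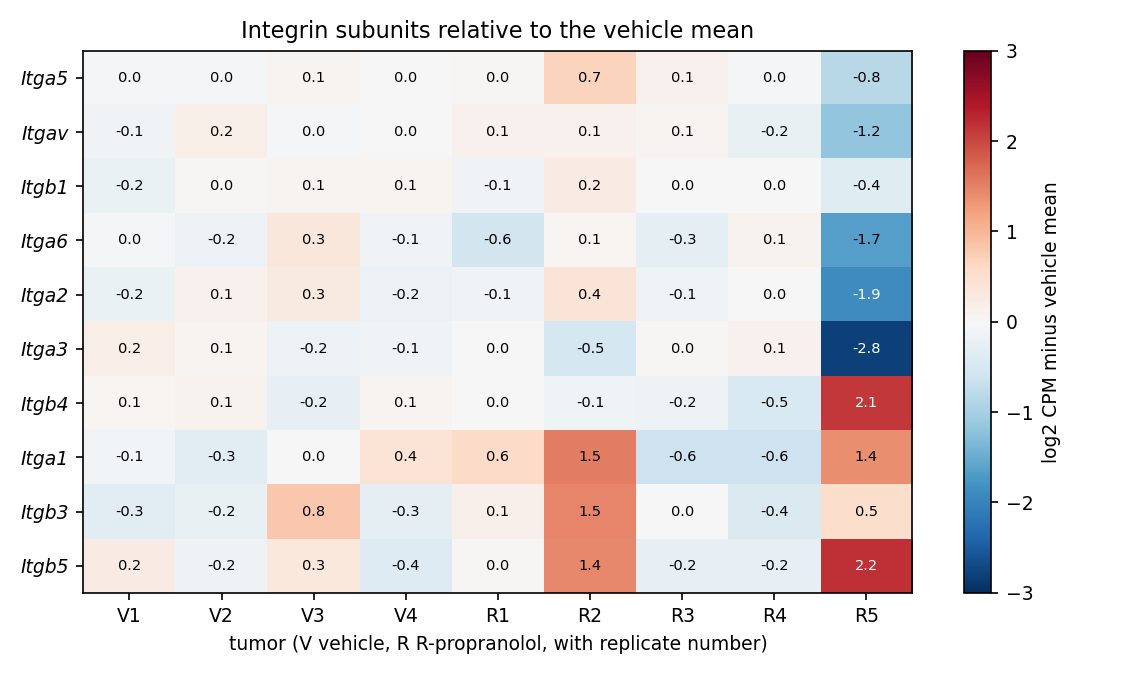
Log2 CPM of each integrin subunit (rows) in each tumor (columns, V vehicle and R R-propranolol with the replicate number) minus the mean of the 4 vehicle-treated tumors, with higher values in red and lower values in blue. R-propranolol replicate 5 is lower than the vehicle mean for 6 subunits and higher for 4, and R-propranolol replicate 2 is high for Itga1, Itgb3 and Itgb5.

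Markers of other cell types moved with the same 2 tumors. All 20 skeletal muscle and all 10 adipocyte markers were highest in R-propranolol replicate 5, where their summed levels were 228678 and 5382 CPM. In the other tumors the muscle sum was at most 594 CPM and the adipocyte sum at most 461 CPM. The 10 mural cell markers (pericytes and smooth muscle) summed to 515 CPM in replicate 2 and 553 CPM in replicate 5, against 120 to 172 CPM in the other 7 tumors. Each mural marker was highest in one or the other, 8 were above the other 7 tumors in both, and 1 was under all 7 in replicate 5. The 8 fibroblast markers summed to 1489 and 2766 CPM in these tumors, against 749 to 1018 CPM. Of these, 7 were above the other 7 tumors in both, and 1 was under all 7 in replicate 5. For the 10 macrophage markers the sums were 3526 and 4163 CPM, against 746 to 2167 CPM. Of the 14 endothelial markers, 8 (Pecam1, Kdr, Tek, Emcn, Erg, Cldn5, Robo4 and Egfl7) were also higher in both tumors than in each of the other 7, although the summed level was not. In replicate 5, 3 of the 14 were under all 7, Flt1 among them. Pecam1, an adhesion molecule of endothelial junctions, was at 167 and 142 CPM in replicates 2 and 5, against 34.1 to 67.0 CPM in the others. The VEGF receptor Flt1 was at 324 and 111 CPM, against 443 to 633 CPM. Itga1 and Itgb5 were high in both tumors along with the mural, fibroblast, macrophage and these 8 endothelial markers. Their part in the result was not tested. The 9 platelet markers summed to 322 CPM in R-propranolol replicate 2, 153 CPM in vehicle replicate 3 and 127 CPM in R-propranolol replicate 5. The other tumors had 48.6 to 106 CPM. Itgb3 was highest in the same tumors, in the same order. Of the 9, 4 were above the other 7 tumors in both R-propranolol replicates, and 2 were under all 7 in replicate 5. The part of platelets in the level of Itgb3 was not tested.

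Keratinocyte and Schwann cell markers, listed because such cells carry Itga6 and Itgb4, were low. The 14 keratinocyte markers summed to 5.70 to 24.0 CPM in the vehicle group and 4.10 to 46.0 CPM in the R-propranolol group, the highest in replicate 5. Of these, 6 were highest there, with Dmkn at 20.2 CPM and Trp63 at 8.51 CPM as the most abundant. Krt5, which defines basal keratinocytes, was at 0 in 7 of 9 tumors including replicate 5, and Krt14 was at 0.731 CPM there. The 7 Schwann cell markers summed to 21.2 to 34.5 CPM in the vehicle group and 20.2 to 78.9 CPM in the R-propranolol group, and the highest sum was in replicate 2, where Itgb4 was at 9.53 CPM. Of the 7 Schwann cell markers, 5 were higher in both replicates 2 and 5 than in each of the other tumors. The part of these cell types in the level of Itgb4 was not tested. In bulk tumor tissue a change in the number of cells of a type and a change of RNA per cell cannot be told apart.

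**Figure D4:**
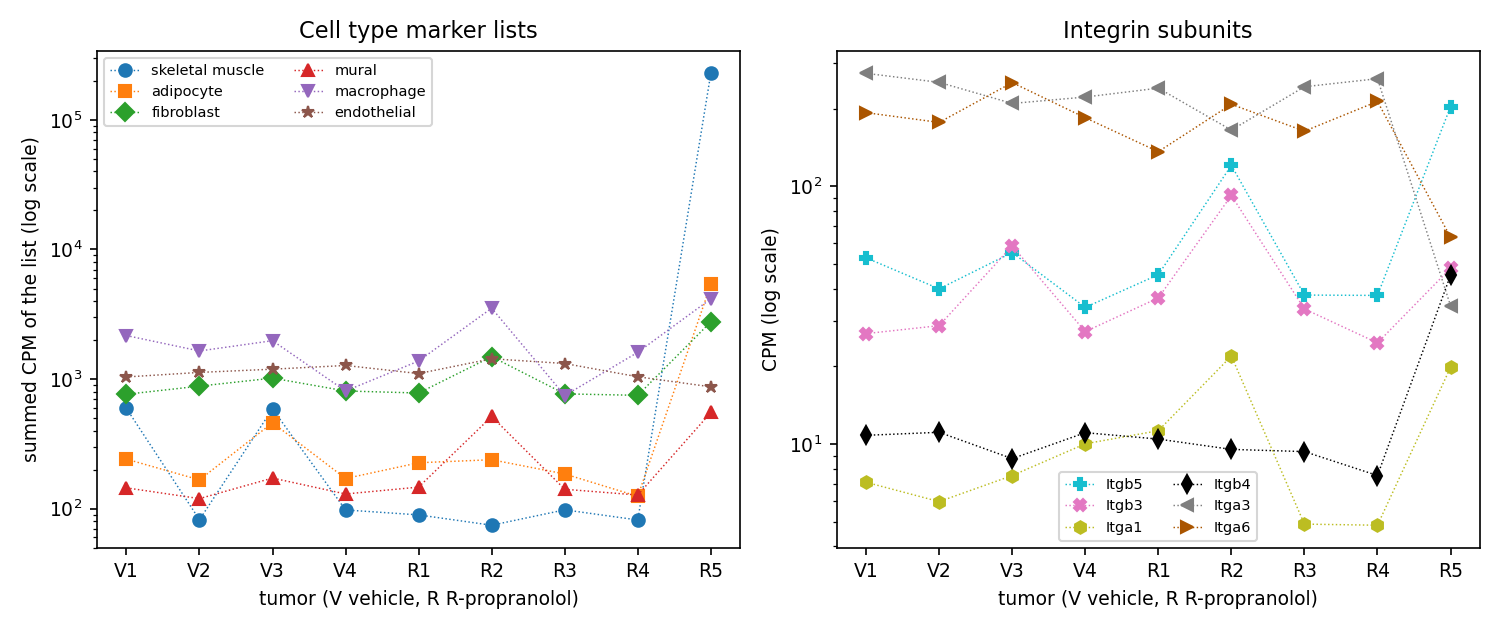
Summed CPM of 6 lists of cell type markers (left, log scale) and CPM of 6 integrin subunits (right, log scale) in each tumor, with dotted lines only to guide the eye between tumors. The sums of mural and fibroblast markers, Itgb5 and Itga1 are higher in R-propranolol replicates 2 and 5 than in the other 7 tumors, and skeletal muscle markers reach 228678 CPM in replicate 5.

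To compare subunits with each other, CPM were divided by the kilobases of merged exons. Averaged over 9 tumors, Itgb1 led with 199.5 CPM per kb, above the next subunit in 9 of 9 tumors. Itga5 (48.7) and Itga3 (37.1) followed, and Itga5 was above Itga3 in 8 of 9 tumors, although their ranges in vehicle-treated tumors overlapped. Itgav (23.8) came next, followed by Itgb5 and Itga6 with like means (both 19.6). Itgb5 was above Itga6 in only 2 of 9 tumors, R-propranolol replicates 2 and 5. In the vehicle group Itga6 (19.6 to 28.0 CPM per kb) lay above Itgb5 (9.54 to 15.6). Itgb3 (7.09) was above Itgb4 (1.96) in every tumor. Itgb4 and Itga2 (1.51) were not separated, with Itgb4 higher in 4 of 9, and Itga1 (0.558) was last.

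Length decided part of this order. With the longest transcript in place of merged exons, the mean level of Itga6 was 2.09 times higher, at 41.0 CPM per kb. This mean moved above those of Itgav and Itgb5. Itga1 was 1.70 times and Itgav 1.52 times higher on that scale, and Itga1 was still last.

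Among the 4 beta subunits, Itgb1 made up 88.9% to 93.1% of the summed level per length in vehicle-treated tumors. Its share was 82.4% in R-propranolol replicate 2 and 68.4% in replicate 5. Itgb5 took 25.2% of the beta subunits in replicate 5, against 4.16% to 7.49% in the vehicle group. Among the 6 alpha subunits, Itga5 made up 32.7% to 35.5% in the vehicle group and 33.4% to 50.8% in the R-propranolol group. The 50.8% was in replicate 5, where the level of Itga5 itself was the lowest of all tumors (26.4 CPM per kb). The share of Itga3 was 25.9% to 34.2% in the vehicle group and 11.6% in R-propranolol replicate 5. With the longest transcript as length, the Itga5 share was 27.0% to 29.0% in the vehicle group and 42.0% in replicate 5. The shares describe RNA only, and pairs of subunits were not measured.

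**Figure D5:**
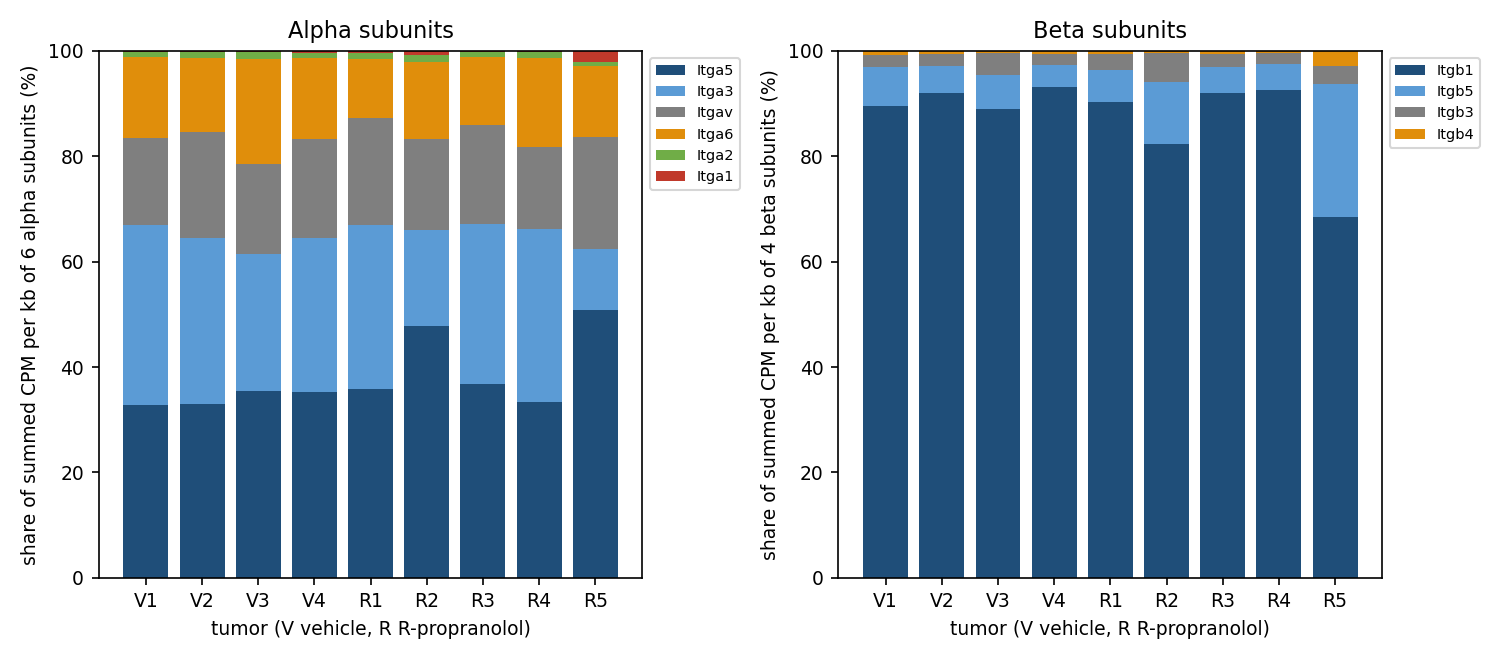
Share (percent) of each subunit in the summed CPM per kilobase of 6 alpha subunits (left) and 4 beta subunits (right) in each tumor (V vehicle, R R-propranolol). Itgb1 takes its smallest shares of the beta subunits in R-propranolol replicates 2 (82.4%) and 5 (68.4%).

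The 6 alpha subunits together had 0.580 to 0.708 times the level per length of the 4 beta subunits in the vehicle group. In the R-propranolol group the ratio was 0.228 in replicate 5 and at most 0.647. With the longest transcript as length it was 0.738 to 0.896 with vehicle, 0.288 in replicate 5 and at most 0.825 with R-propranolol. The ratio of Itgb5 to Itgav, the receptor pair for vitronectin, was 0.385 to 0.642 in vehicle-treated tumors, 1.25 in R-propranolol replicate 2 and 5.19 in replicate 5. With the longest transcript as length these values were 0.274 to 0.456, 0.886 and 3.69, so their size depends on the length used. By merged exons, Itgb3 over Itgav was 0.173 to 0.410 in the vehicle group and 0.194 to 0.737 in the R-propranolol group, so these ranges overlapped.

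Among many genes high correlations arise readily, and the tumors differed in composition, R-propranolol replicate 5 most of all. The genes whose log2 CPM followed a member most closely are given for some members, as a description only. For Itgb5 they were Ebf3 (r = 0.995) and Ccdc80 (r = 0.995) over 9 tumors, and Ccdc80 (r = 0.994) and Ebf1 (r = 0.992) over the 8 tumors without R-propranolol replicate 5. For Itgb3 over 8 tumors they were Jag1 (r = 0.988) and Fam73a (r = 0.988). Itgb1 was followed by Hsp90b1 in both sets of tumors (r = 0.972 and 0.978), although Gm5483 was closer over 9 tumors (r = 0.980). Itgav was followed by Slc36a4 (r = 0.994 and 0.932). For the 7 members apart from Itgb1, Itgb5 and Itgav both closest genes changed when replicate 5 was left out. Over 9 tumors Itga5 was closest to Notch4 (r = 0.985) and over 8 tumors to Mest (r = 0.995).

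Between members, r also depended on 1 tumor. Itga2 and Itgav had r = 0.933 over 9 tumors and 0.278 over 8, and Itga3 and Itgav had 0.902 and -0.37. Itgb3 and Itgb5 had 0.694 over 9 tumors, 0.882 over 8 and 0.610 over the 7 tumors without R-propranolol replicates 2 and 5.

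Of the 17 other integrin subunits, 13 were tested, 6 had a higher mean with R-propranolol, and 0 passed at an adjusted or an unadjusted p of 0.05 (median log2 fold change -0.01). Itga11, a collagen-binding partner of Itgb1 on fibroblasts, had the smallest p. It was at 0.237 to 2.86 CPM in vehicle-treated tumors, 22.4 CPM in R-propranolol replicate 2, 24.6 CPM in replicate 5 and 0.369 to 0.467 CPM in replicates 1, 3 and 4, which placed it with Itga1 and Itgb5. Itgb6, a partner of Itgav on epithelia, failed the filter, with 43.4 CPM in R-propranolol replicate 5 and at most 0.301 CPM in the other tumors. Itgb6 was named after its values were seen.

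Of 27 tested activators and adaptors of integrins, 17 had a higher mean with R-propranolol (median log2 fold change 0.04). The number past an adjusted p was 0 in edgeR's test. At an unadjusted p under 0.05, where 2.3% of all genes tested were, it was 1 higher and 0 lower. That gene was Lims1, an adaptor in the complex with integrin-linked kinase, with a log2 fold change of 0.29 (SE 0.11, adjusted p = 0.876 in edgeR's test). Fermt2, the kindlin that binds the second turn of the beta tails, had 0.57 (SE 0.25), and Flna, a filamin that competes with talin for beta tails, had -0.11 (SE 0.29), which turned to 0.08 without R-propranolol replicate 5. Without R-propranolol replicate 5, 24 of the 27 had a higher mean and the median was 0.15, beside 0.01 for all genes. In that fit 4 were at an unadjusted p under 0.05, where 3.78% of all genes were, and 0 at an adjusted p. The fit still held R-propranolol replicate 2, and the lists were not examined without both tumors.

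Of 26 tested ligands, 15 had a higher mean, with a median log2 fold change of 0.06, beside 0.03 for all genes. At an unadjusted p under 0.05 there was 1 ligand, where 2.3% of all genes tested were. Without R-propranolol replicate 5, but with replicate 2 still in the fit, 22 of the 26 had a higher mean. The median was then 0.17, beside 0.01 for all genes. There was again 1 ligand at an unadjusted p under 0.05, where 3.78% of all genes in that fit were. In both fits the ligand at this p was Cyr61, a matricellular ligand of Itgav and Itga6 receptors. Its levels were 60.1, 48.7, 71.5 and 73.3 CPM in the vehicle group and 116, 296, 201, 112 and 66.7 CPM in the R-propranolol group. Replicates 1 to 4 of the R-propranolol group lay above every vehicle-treated tumor and replicate 5 lay within the vehicle range. The log2 fold change of Cyr61 was 1.32 (SE 0.41, interval 0.40 to 2.24, adjusted p = 0.876 in edgeR's test), and 1.51 without replicate 5 (adjusted p = 0.9995).

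Lama4, a laminin chain of vessel basement membranes, was at 17.5 to 32.7 CPM in vehicle-treated tumors, 176 CPM in R-propranolol replicate 2, 199 CPM in replicate 5 and 14.6 to 28.8 CPM in the other treated tumors. It was thus high in the 2 tumors in which Itgb5 and Itga1 were high. Spp1, an RGD ligand of Itgav receptors with the highest level per length among the ligands, had a log2 fold change of -0.52 (SE 0.62), and -0.23 without R-propranolol replicate 5. Of 4 inhibitors (Sharpin, Itgb1bp1, Dok1 and Dok2) 3 had a higher mean, with a median of 0.10, and of 12 membrane partners and hemidesmosome genes 5 had, with a median of -0.06. None of these 16 genes passed an unadjusted p of 0.05. Sharpin and Itgb1bp1, which bind integrin tails and hold the receptor inactive, had log2 fold changes of -0.08 (SE 0.11) and 0.13 (SE 0.17). Itgb1bp1 turned to -0.03 without R-propranolol replicate 5. Plec, the plectin that binds Itgb4, had a log2 fold change of 0.31 (SE 0.19), and 0.21 without R-propranolol replicate 5. It was highest in that tumor, as Itgb4 was. The same tumor had 16.3% of its counts in skeletal muscle markers, whose part in the level of Plec was not tested.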

How the data were processed

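The authors deposited raw read counts per gene symbol, whole numbers without normalization. Per the labels, total RNA of frozen tumors was made into NEBNext Ultra libraries and sequenced as pairs. The submitters' processing notes name STAR, HTSeq, edgeR and the build mm10. Versions, the annotation used and how strand was handled were not given in the sources used here. Reads that HTSeq left out (outside genes 13.4% to 15.4%, ambiguous 1.81% to 1.98%, several places 3.46% to 7.86%) stayed out of library sizes. Groups follow the treatment label.

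Genes were kept by filterByExpr (minimum count 10, minimum total 15), scaled by TMM and compared with the quasi-likelihood test of edgeR 4.0.16 in R 4.3.3, with p adjusted by Benjamini and Hochberg over 13901 genes. Log2 CPM used a prior count of 2. The fit was tested on simulated counts. Alternatives used DESeq2 1.42.0, limma 3.58.1, other scaling and filters, and left tumors out. Leaving out both R-propranolol replicates 2 and 5 was added after seeing the data. The members and lists were chosen with earlier results of these data known. Besides the members, genes of each integrin list were picked as the 2 tested with the smallest p and the one with the highest level per length. Bsg and Cd63, picked so from the membrane partners, are not described, and Itgb2, Itgb6 and cell type markers were named outside this rule. The genes most alike over 9 and 8 tumors are given for some members only. Gene places and lengths are from GENCODE M21 on GRCm38. Over all 36 pairs of libraries the chi-square per gene was at least 12.4, so none agreed within sampling noise. Tumor volumes, protein and cell culture data were not analysed here.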

Additional observations from a re-analysis of the deposited data

Results flagged for a closer look

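Each of the 10 members was examined in both groups for a tumor far from the rest by Dixon's criterion, 20 groups in all, and 6 values in 5 members met it. Chance flags about 1 in 20 groups. The members were measured in the same tumors and are not independent, so the number of flags cannot be judged by that share. R-propranolol replicate 5 accounted for 4 of them, with Itga2 at 3.06 CPM, Itga3 at 34.4 CPM and Itgav at 119 CPM as the lowest of their group, and Itgb4 at 45.2 CPM as the highest. Vehicle replicate 3 accounted for the others, with Itgb3 at 58.7 CPM far above and Itgb4 at 8.77 CPM under the other vehicle-treated tumors. For Itgb4 in vehicle replicate 3 the distance was small in size, since the other tumors of the group lay between 10.8 and 11.1 CPM.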

How the results depend on the processing

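Over 19 alternatives, 0 members passed an adjusted or an unadjusted p of 0.05 where a p was given (DESeq2 gave none for Itgb4). Groups of no member came apart in the alternatives in which this was counted. Of all genes tested, between 168 of 13901 (size factors of DESeq2) and 791 of 13812 (without R-propranolol replicates 2 and 5) came apart there. With backgrounds this low, 0 of 10 does not set the members apart from other genes. The median log2 fold change of the members ranged from -0.12 to 0.04. Library size alone in place of TMM moved the median of all genes from 0.03 to -0.10 and turned Itga5 from 0.07 to -0.04. Without R-propranolol replicate 2 Itga5 was -0.13, and without replicate 5 Itga2, Itgav, Itgb1 and Itgb4 changed sign. Replicate numbers did not pair the tumors (same-number r -0.30, 0.07, -0.64 and 0.53). The replicate block, which gives R-propranolol replicate 5 no partner, left 0 members past either p, with a median of 0.03, Itgb5 at 0.23 and Itgb4 at -0.18. Genes at an unadjusted p under 0.05 numbered 320 with edgeR, 656 with DESeq2, 139 with limma-voom and 838 with quality weights, and the adjusted calls were 0, 2, 0 and 0. They numbered 626 without a filter and 100 with vehicle replicates 1 and 2 summed, and 103 to 737 when single tumors were left out. Groups of 4 and 5 tumors limit the precision, and with all 9 tumors only the intervals of Itga5, Itgav and Itgb1 hold no 2-fold difference. Of 29 levels and ratios per length, 10 moved by more than the spread between tumors with the longest transcript as length.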

Other observations

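The integrins of leukocytes, which the members do not include, also varied by tumor, and were looked at after their values were seen. Itgam, an alpha subunit of macrophages and other myeloid cells, was at 144, 116, 152 and 52.8 CPM in the vehicle group and 111, 238, 48.8, 105 and 206 CPM in the R-propranolol group. Its partner Itgb2 was at 72.4, 62.5, 74.5 and 32.9 CPM in the vehicle group and 54.98, 128, 26.9, 53.2 and 151 CPM in the R-propranolol group. Both were highest in R-propranolol replicates 2 and 5 and lowest in vehicle replicate 4 and R-propranolol replicate 3, the same tumors in which the 10 macrophage markers summed highest (3526 and 4163 CPM) and lowest (809 and 746 CPM). Itgax, carried by dendritic cells and some macrophages, had another order, with 28.3 CPM in vehicle replicate 1 and 6.65 CPM in R-propranolol replicate 5. Neither group nor test set these genes apart, with log2 fold changes of 0.29 (SE 0.47) for Itgam, 0.45 (SE 0.50) for Itgb2 and -0.56 (SE 0.45) for Itgax. The part of immune cell content in these values was not tested.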
